A study of Homo sapiens with 27 samples.

Results

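Translation initiation and elongation factors are the proteins that bring the ribosome to the start codon of a messenger RNA and then move it along the reading frame. The genes were chosen by symbol: 50 gene symbols of the eIF and eEF families, their exchange factor, their binding proteins and 1 kinase were looked up in the deposited expression table, and 49 of them have a row there among 26004 genes. EEF1G, the gamma subunit of the elongation factor 1 complex, is not analysed here. The genes were measured by RNA-seq in A2058, A375 and SKMEL2, 3 human lines derived from melanoma, after knockdown of SIRT5, a mitochondrial deacylase whose substrates include succinylated and malonylated lysines. In each line there were 2 SIRT5 knockdown arms, KD1 and KD2, each with a different short hairpin RNA and 3 libraries, and a control arm, NT, with 3 libraries that carried a non-silencing hairpin directed at Gaussia luciferase, a gene human cells lack. All arms received pLKO.1 lentivirus with polybrene, puromycin at 1 µg/ml to select transduced cells, and lysis in TRIzol 96 h after infection, so infection and selection are shared by knockdown and control. The lines are ATCC cultures, and the transduced cells were selected populations rather than single clones. The labels name the hairpins, but the sources used here do not tie those names to KD1 and KD2. The 3 libraries of an arm came from 3 wells, so p-values reflect only how wells vary, and that variation may be technical.

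Initiation begins when eIF2, bound to GTP and the initiator tRNA, joins the small ribosomal subunit together with eIF1, eIF1A, eIF3 and eIF5. The cap-binding protein eIF4E, the scaffold eIF4G and the helicase eIF4A bring this complex to the capped 5′ end of the mRNA, and the 4E-binding proteins block the step by occupying eIF4E. The exchange factor eIF2B reloads eIF2 with GTP, a step that the stress kinases hinder by placing a phosphate on the alpha subunit of eIF2. In elongation eEF1A delivers aminoacyl-tRNA, the eEF1B subunits recharge eEF1A with GTP, and eEF2 translocates the ribosome until the kinase eEF2K phosphorylates and inactivates it. Many of these genes, with the ribosomal protein genes, make mRNAs that start with a C and a run of pyrimidines, the terminal oligopyrimidine (TOP) element, through which mTOR controls their translation.

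Library depth, as reads assigned to the genes of the table, ran from 29.3 to 54.5 M for A2058 libraries, from 7.10 to 23.9 M for A375 libraries and from 20.2 to 40.5 M for SKMEL2 libraries. SIRT5 itself averaged 0.301 ± 0.137 FPKM in A2058 knockdown libraries and 2.11 ± 0.282 FPKM in control libraries (SD, n = 6 and 3), 0.101 ± 0.0701 against 1.24 ± 0.109 FPKM in A375, and 0.450 ± 0.240 against 3.33 ± 0.377 FPKM in SKMEL2. FPKM is the read count scaled to gene length and to a factor for each library. That factor was not in fixed proportion to the assigned reads. In A375 it was 0.237 at 7.10 M reads in KD2 replicate 1 and 0.692 at 16.3 M in control replicate 1. In these bulk samples fewer cells of a type and less RNA per cell cannot be told apart. The melanocyte genes MITF, PMEL, TYR, MLANA, DCT and SOX10 summed to 454 to 572 FPKM in knockdown and 788 to 813 FPKM in control libraries of A2058, to 187 to 323 and 183 to 198 FPKM in A375, where 2 of the 6 stayed below 0.1 FPKM, and to 632 to 844 and 1455 to 1651 FPKM in SKMEL2. A375 is the least uniform line. The summed FPKM of its knockdown libraries ran from 307910 to 418033, with KD2 replicate 3 the lowest, against 276729 to 308973 in its control libraries. KD2 replicate 3 differs from the other KD2 libraries in many of the factors described here, and 1 raw file of control replicate 2 was truncated according to the labels. Several A375 results are therefore also given without one of these libraries, and other A375 results may rest on either too. A375 had the lowest depths, though its deepest library, at 23.9 M, exceeded the shallowest of SKMEL2, at 20.2 M. The depths of A2058 and SKMEL2 libraries overlapped as well. Differences between lines cannot be told apart from differences in how the lines were processed.

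Knockdown moved many of these genes, most by small amounts, as it did many other genes. Changes are differences of log2(FPKM + 0.5) with a standard error from limma, and a gene passes at a Benjamini-Hochberg adjusted p under 0.05 over all genes of the fit. Of the 48 genes that passed the level filter in A2058, 23 rose and 13 fell, while 34.6% of all tested genes rose and 34.7% fell. In A375, 15 of 48 rose and 5 fell, against backgrounds of 26.2% and 21.7%. Without KD2 replicate 3, 17 rose and 15 fell in A375, with backgrounds of 32.1% and 30.1%. The falling count in A375 was 3 without control replicate 1 and 2 without control replicate 2. In SKMEL2, 14 of 47 rose and 16 fell, against 32.9% and 32.4%. Averaged over the 3 lines, 17 of 48 rose and 13 fell, with a background of 32% in each direction. Under quantile normalization 18 rose and 17 fell in A2058 (all genes 35% and 34.7%), 9 rose and 15 fell in A375 (all genes 26.6% and 23.7%), and 9 rose and 15 fell over the lines (all genes 32.6% and 32.6%). Centring each library on its median gave 21 rising and 10 falling over the lines, and moved the shares of all genes to 37% and 26.3%. The median change of the genes was 0.05 in A2058, 0.02 in A375, 0.01 in SKMEL2 and 0.04 over the lines, where the medians of all tested genes were -0.01, 0.02, 0.00 and 0.00. The knockdown arms of a line share its control libraries. Both arms passed in the same direction for 19 genes in A2058, 12 in A375 and 17 in SKMEL2, beside 37.0%, 22.2% and 33.4% of all tested genes. The A375 count was 19 without KD2 replicate 3, 7 without KD1 replicate 1 and 6 without control replicate 1 or 2.

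**Figure D1:**
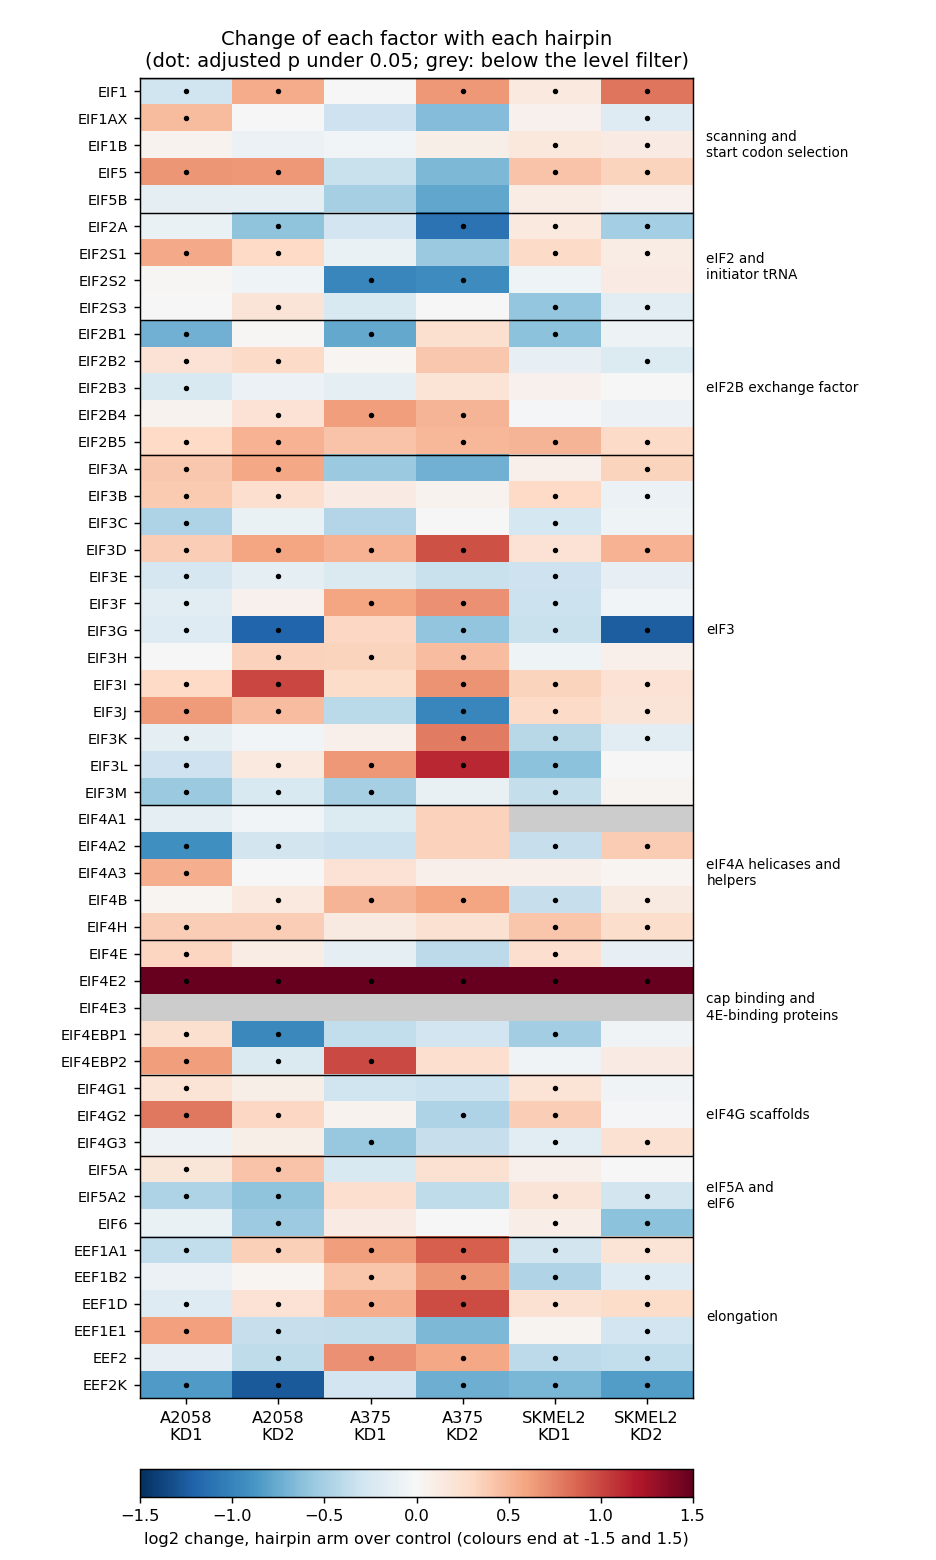
The heat map gives the log2 change of each of the 49 genes, in rows ordered by role, for the KD1 and KD2 arms of each line over that line's NT arm. EIF4E2 is the darkest row in all 6 columns, EEF2K is below 0 in all 6, and many other rows change sign between lines or between hairpins.

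Among the 47 genes tested in each line, 4 rose in all 3 lines by the mean of both arms, EIF4E2, EIF3D, EIF3I and EIF2B5. By that mean 2 fell in all 3, EEF2K and EIF2A, though EIF2A rose in KD1 of SKMEL2. The backgrounds of those counts are 10.7% and 10.5% of the genes tested in every line. EIF4E2 and EIF3D passed with each hairpin in each line, as did 4.13% of all genes rising, and no factor fell in all 6 arms, where 2.58% of all genes did.

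The cap-binding genes held the largest change. EIF4E2 (ENSG00000135930, chromosome 2, 232550659 to 232583644, plus strand, GRCh38) encodes 4EHP, a homologue of eIF4E that binds the cap without binding eIF4G and so represses translation of the mRNAs to which it is recruited. In A2058 its FPKM was 15, 14.2 and 14.1 in KD1 and 15.7, 15 and 15.8 in KD2, against 3.43, 2.92 and 3.60 in control. The groups were separate by a wide margin, and the fold was 4.51. In A375 EIF4E2 stood at 17.2, 16.7 and 19.6 FPKM in KD1 and 19.7, 19.1 and 15 in KD2, against 4.37, 5.05 and 5.87 in control, a fold of 3.51. In SKMEL2 it stood at 14.6, 14.6 and 14.6 FPKM in KD1 and 13.5, 13.7 and 14.0 in KD2, against 4.29, 4.26 and 4.45 in control, a fold of 3.26. All 18 knockdown libraries thus lay above all 9 control libraries. Within a line, knockdown libraries all above control were seen for 20.3%, 17.1% and 19.1% of all tested genes in A2058, A375 and SKMEL2. The limma changes were 2.02 ± 0.06, 1.72 ± 0.13 and 1.60 ± 0.03 for A2058, A375 and SKMEL2, at adjusted p-values of 2.8e-09, 1.3e-05 and 2.5e-09. The difference KD2 minus KD1 was 0.10 ± 0.07 for A2058, -0.00 ± 0.15 for A375 and -0.08 ± 0.03 for SKMEL2, which did not pass (adjusted p = 0.19, 1 and 0.055). SIRT5 RNA itself was higher in KD2 than in KD1, by 0.45 for A2058 and 0.67 for SKMEL2 (adjusted p = 0.012 and 0.00017), with 0.25 for A375 (adjusted p = 0.27). Relative to EIF4E, the canonical cap-binding gene, EIF4E2 had an FPKM ratio of 3.33 ± 0.0823 in KD1 and 4.20 ± 0.126 in KD2 of A2058 against 0.987 ± 0.156 in control (SD, n = 3 each). That ratio was 10.2 ± 3.35 and 13.8 ± 6.62 in the KD1 and KD2 arms of A375 against 2.47 ± 0.454 in control, and 4.51 ± 0.447 and 5.78 ± 0.487 in those of SKMEL2 against 1.64 ± 0.0542 in control.

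The 3′ UTR of EIF4E2 is shown because it carries a 7-mer, GAAGAGC. When these same libraries were examined earlier, it marked genes that were lower in the control arm than in the knockdown arms, EIF4E2 being among them. The 30 bases around it (GENCODE release 44 on GRCh38, chr2:232569114-232569143, plus strand, the 7-mer in capitals) read as follows.
EIF4E2: caagaggaattgGAAGAGCattttatgttt
The annotated 3′ UTR holding it has 193 bases. The 7-mer, searched on the sense strand, is in the 3′ UTR of 11.4% of the 12355 genes tested over the lines that have an annotated 3′ UTR. It is in 7 of the factors, EIF1, EIF2B2, EIF4A3, EIF4E2, EIF4E3, EIF4EBP2 and EIF4H. Since the 7-mer was found by comparison with these control libraries, changes of the genes that hold it are not compared here. The part of this sequence in the change of these 7 factors was not tested. KD1 and KD2 are both set against the same control libraries. For EIF4E2 and the other factors that hold the 7-mer, a low control level and a rise with SIRT5 knockdown cannot be told apart.

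**Figure D2:**
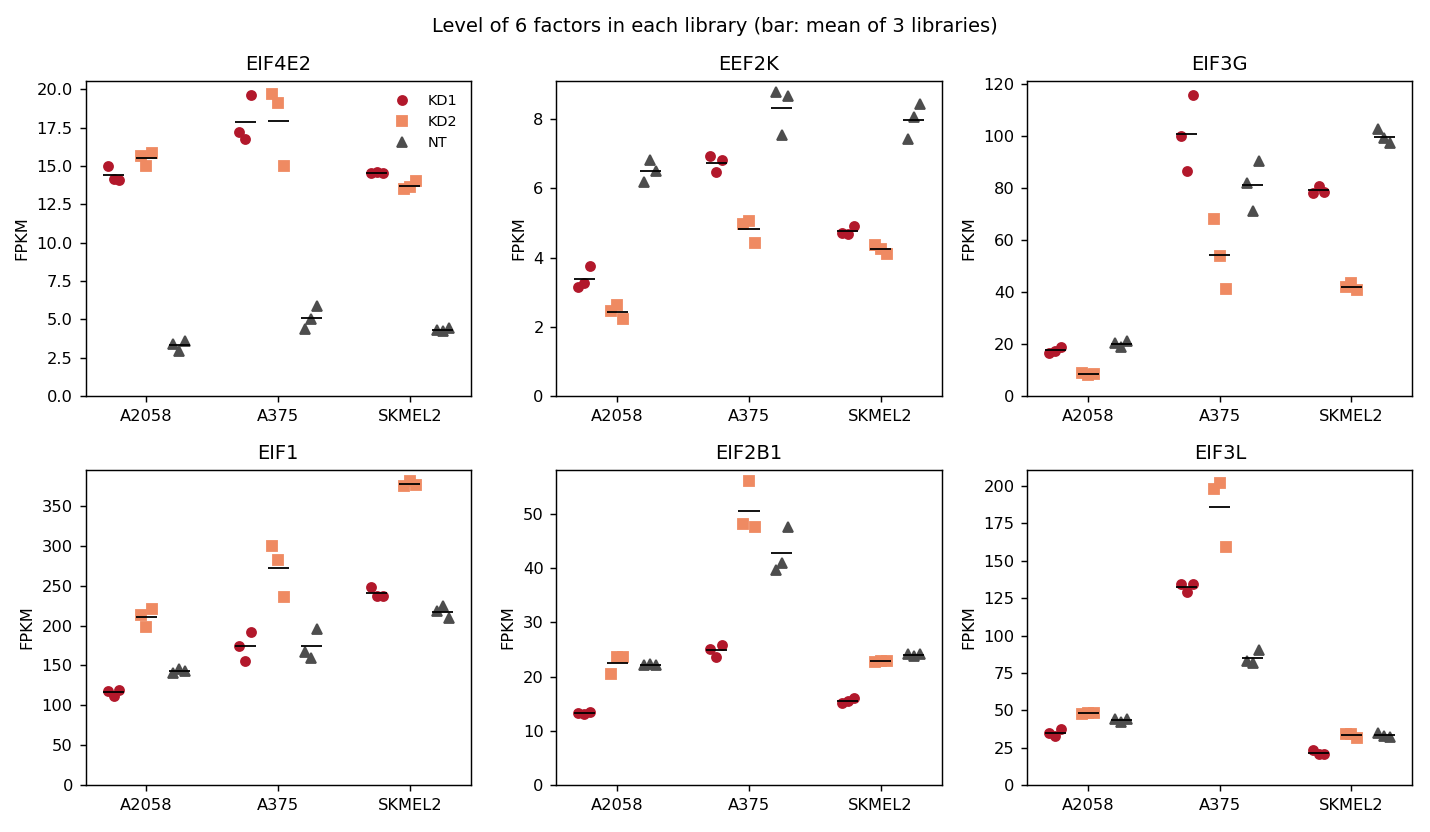
FPKM of 6 factors in each of the 27 libraries, with KD1, KD2 and NT side by side for each line and a bar at the mean of 3. EIF4E2 is above 13 FPKM in every knockdown library and below 6 FPKM in every control library, whereas EIF3G, EIF1 and EIF2B1 separate KD1 from KD2 in all 3 lines.

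Of the other cap-binding genes, EIF4E rose by 0.22 ± 0.05 in A2058 (adjusted p = 0.0045) and had changes of -0.27 ± 0.23 in A375 and 0.06 ± 0.06 in SKMEL2, which did not pass. It was a low gene, at 4.01 ± 0.379 FPKM in knockdown and 3.38 ± 0.196 in control libraries of A2058 (SD, n = 6 and 3). EIF4E3, a further homologue, stayed under the level filter in every fit, with 0.549 ± 0.167 FPKM in knockdown and 0.438 ± 0.0452 in control libraries of SKMEL2, and 0.0599 ± 0.0185 against 0.0241 ± 0.0101 in A2058. In the authors' deposited tables EIF4E3 had log2 fold changes of 1.34 in A2058, 1.87 in A375, 0.30 in SKMEL2 and 0.86 over all lines (adjusted p = 0.037, 0.084, 0.46 and 0.0042), at 1 to 31 reads a library in A2058 and A375. EIF4EBP1, the 4E-binding protein that mTOR phosphorylates, fell by 0.33 ± 0.06 over the lines (adjusted p = 0.00015), but the arms did not act together. In A2058 it stood at 139, 146 and 149.7 FPKM in KD1 and 63.0, 61.8 and 62.2 in KD2, against 128, 114 and 125 in control, so the fall lay in KD2. In SKMEL2 EIF4EBP1 stood at 87.4, 93.2 and 90.3 FPKM in KD1 and 124, 124 and 129 in KD2, against 134, 136 and 121 in control, so there KD1 was the lower arm. In A375 it stood at 124, 114 and 144 FPKM in KD1 and 166, 146 and 99.6 in KD2, against 167, 139 and 189.9 in control, where the groups overlapped. EIF4EBP2, a second 4E-binding protein, rose over the lines by 0.29 ± 0.03 (adjusted p = 1.2e-07), but the lines differed (F-test adjusted p = 1.2e-05), and the change in SKMEL2 was 0.04 ± 0.05 (adjusted p = 0.53). Its A375 values of 23.2, 21.3 and 22 FPKM in KD1 and 14.5, 12.4 and 12.4 in KD2 all exceeded the 10.3, 11.2 and 11.1 FPKM of control. The same held for 17.1% of all tested genes there. In A2058 EIF4EBP2 was above control in KD1, at 26.7, 26 and 27.3 FPKM, and below it in KD2, at 14.8, 15 and 14.2, with 17.3, 17.7 and 16.5 FPKM in control.

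Of the 3 eIF4G scaffolds, EIF4G2, which encodes the eIF4G-like protein DAP5, rose by 0.55 ± 0.04 in A2058 and 0.18 ± 0.03 in SKMEL2 (adjusted p = 7.0e-07 and 0.00031), with -0.20 ± 0.14 in A375 (adjusted p = 0.24). The SKMEL2 rise of EIF4G2 lay in KD1 (0.37, adjusted p = 5.6e-06), with -0.01 in KD2 (adjusted p = 0.73). EIF4G1, the main scaffold, rose by 0.15 in A2058 and fell by 0.31 in A375. EIF4G3 did not pass in any line, though in A375 it was -0.57 and passed without KD2 replicate 3 (adjusted p = 0.0026). Of the helicases and their helpers, EIF4H, a stimulator of eIF4A, was the most even: it rose by 0.37 ± 0.04 in A2058 and 0.34 ± 0.03 in SKMEL2, and its change in A375 was 0.18 ± 0.11 (adjusted p = 0.21). In A2058 EIF4H stood at 134 to 139 FPKM in the 6 knockdown libraries and 99.1 to 109 in the 3 control libraries. Such separation upward was seen for 20.3% of all tested genes there. EIF4A2, the second cytoplasmic eIF4A helicase, fell by 0.60 ± 0.04 in A2058 (adjusted p = 5.0e-07), where it stood at 25.4, 23.8 and 24.7 FPKM in KD1 and 37.6, 40.3 and 38 in KD2, against 44.8, 49.5 and 46.6 in control. In SKMEL2 the EIF4A2 arms lay on opposite sides of control, at 36.3, 34.8 and 36.1 FPKM in KD1 and 61.6, 55.7 and 60.5 in KD2, with 47.4, 46.3 and 42.9 in control. The A375 values were 17.5, 27.3 and 17.4 FPKM in KD1 and 27.7, 25.7 and 48.0 in KD2, against 26.5, 27.6 and 22.5 in control. The fall of EIF4A2 over the lines, -0.19 ± 0.08, just passed (adjusted p = 0.0497) and was lost on leaving out most single libraries. EIF4A1, the main eIF4A helicase, had 1.24 ± 0.238 FPKM in knockdown and 1.34 ± 0.154 in control libraries of A2058 and failed the filter in SKMEL2. In GENCODE release 44, 47.4% of EIF4A1 exon bases are shared on the same strand with SENP3-EIF4A1 and small nucleolar RNA genes, and 10.5% of those of EIF4A2 with such RNA genes, so the deposited levels of both can miss reads that were assigned elsewhere.

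Among the factors of scanning and start codon selection, EIF1, which keeps the scanning complex open until the start codon is found, rose by 0.47 ± 0.03 in SKMEL2 (adjusted p = 1.6e-06). Its FPKM there was 249, 236 and 238 in KD1 and 375.1, 382 and 377 in KD2, against 218, 225 and 209 in control, so both arms were above control and KD2 was far above KD1. In A2058 EIF1 stood at 118, 111 and 119 FPKM in KD1 and 213, 198 and 221 in KD2, against 140.3, 145 and 143 in control, with the arms on opposite sides. Its average change in A2058 was 0.13 ± 0.04 (adjusted p = 0.014), and 0.12 without control replicate 1 (adjusted p = 0.057). In A375 EIF1 stood at 174, 156 and 191 FPKM in KD1 and 299.7, 282 and 236 in KD2, against 167, 159 and 196 in control, and the change of 0.32 ± 0.12 missed the threshold narrowly (adjusted p = 0.0504), with 0.37 without KD2 replicate 3 (adjusted p = 0.011), 0.36 without KD1 replicate 2 (adjusted p = 0.043) and 0.41 without control replicate 3 (adjusted p = 0.043). EIF5, the GTPase-activating protein of eIF2, rose by 0.66 ± 0.04 in A2058 (adjusted p = 9.4e-08), with 58.9, 56.6 and 57.7 FPKM in KD1 and 57.5, 54.4 and 59.2 in KD2 against 36.5, 36.9 and 35.2 in control. The KD1 and KD2 values of EIF5 overlapped there, and both arms were above control. In SKMEL2 EIF5 stood at 51.8, 50.6 and 52.1 FPKM in KD1 and 49.7, 46.9 and 48.5 in KD2, against 38.7, 38.2 and 37.9 in control. A375 differed: EIF5 stood at 15.5, 21.1 and 13.5 FPKM in KD1 and 10.6, 9.88 and 20.5 in KD2, against 20.2, 23.8 and 18.8 in control, a change of -0.50 ± 0.23 (adjusted p = 0.091) that became -0.67 without KD2 replicate 3 (adjusted p = 0.0022). The difference of the EIF5 effect between the lines passed its F-test (adjusted p = 0.00022). EIF1AX, EIF1B and EIF5B had changes between -0.64 and 0.24, of which EIF1AX in A2058, at 0.24, and EIF1B in SKMEL2, at 0.14, passed. The A2058 rise of EIF1AX lay in KD1 (0.48, adjusted p = 4.6e-06), with -0.005 in KD2 (adjusted p = 0.93). Without KD2 replicate 3, EIF1AX and EIF5B fell in A375, with changes of -0.63 and -0.88 (adjusted p = 0.0018 and 0.0012).

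The 3 eIF2 subunits took different courses. EIF2S2, the beta subunit, fell by 0.96 ± 0.18 in A375 (adjusted p = 0.0022), with 22.2, 24.4 and 20.2 FPKM in KD1 and 16.9, 20.7 and 33.4 in KD2, against 43.5, 46.3 and 42.9 in control. All 6 knockdown libraries were below the 3 control libraries, as for 13.3% of all tested genes there, with KD2 replicate 3 the closest. In A2058 EIF2S2 stood at 53.4, 47.8 and 50.3 FPKM in KD1 and 45.7, 48.1 and 48.3 in KD2, against 49.0, 49.7 and 50.3 in control, and in SKMEL2 at 70.4, 70.1 and 70.4 in KD1 and 82.4, 74.1 and 84.7 in KD2, against 76.2, 75.5 and 68.7 in control. Its changes of -0.02 and 0.03 in A2058 and SKMEL2 did not pass, and the lines differed (F-test adjusted p = 5.3e-05). EIF2S1, the alpha subunit on which the stress kinases place their phosphate, rose by 0.44 ± 0.04 in A2058 and 0.20 ± 0.03 in SKMEL2 (adjusted p = 7.2e-06 and 0.00022). Its A375 change was -0.32 ± 0.22 (adjusted p = 0.24), and -0.48 without KD2 replicate 3 (adjusted p = 0.0076). EIF2S3, the gamma subunit, fell by 0.37 in SKMEL2 and had 0.09 and -0.12 in A2058 and A375, which did not pass. EIF2A, which despite its name is a single protein unrelated to the eIF2 subunits and can deliver initiator tRNA by another route, fell in all 3 lines, by 0.35 ± 0.05, 0.70 ± 0.22 and 0.18 ± 0.04 in A2058, A375 and SKMEL2 (adjusted p = 0.00011, 0.024 and 0.0026). The fall was carried by KD2, and KD1 did not pass in A2058 or A375 (-0.09 and -0.29, adjusted p = 0.17 and 0.37). In SKMEL2 the arms went opposite ways, with 0.14 in KD1 and -0.51 in KD2 (adjusted p = 0.018 and 9.9e-06). EIF2A stood there at 37.0, 37.5 and 35.4 FPKM in KD1 and 23.7, 23.1 and 22.7 in KD2, against 34.6, 33.9 and 31.0 in control. In A2058 it stood at 20.6, 17.9 and 18.8 FPKM in KD1 and 12.6, 13.3 and 13.9 in KD2, against 19.7, 21.0 and 20.6 in control. In A375 it stood at 16.9, 20.8 and 13.4 FPKM in KD1 and 7.2, 7.55 and 14.6 in KD2, against 21.9, 22 and 18.3 in control. The A375 call of EIF2A was lost without control replicate 1, control replicate 2 or KD2 replicate 2 (adjusted p = 0.084, 0.088 and 0.051).

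Of the 5 eIF2B subunits, EIF2B5, the catalytic epsilon subunit, rose in each line, by 0.41 ± 0.04 in A2058, 0.46 ± 0.15 in A375 and 0.40 ± 0.03 in SKMEL2 (adjusted p = 2.8e-06, 0.027 and 2.2e-06). In A2058 it stood at 11.8, 11.3 and 11.7 FPKM in KD1 and 14.0, 13.8 and 13.4 in KD2, against 9.41, 9.28 and 9.48 in control. In SKMEL2 EIF2B5 stood at 23.7, 24.5 and 24.6 FPKM in KD1 and 20.8, 21.2 and 20.2 in KD2, against 16.9, 16.9 and 17 in control. The groups did not overlap in any line, A375 included, where EIF2B5 stood at 12.9, 12.9 and 16.8 FPKM in KD1 and 17.6, 16.2 and 11.4 in KD2, against 10.2, 9.89 and 11 in control. Of all tested genes 20.3%, 17.1% and 19.1% were separate in this direction in A2058, A375 and SKMEL2. The A375 call was lost without control replicate 1 or 2, KD1 replicate 3 or KD2 replicate 2 (adjusted p = 0.084, 0.098, 0.053 and 0.057). EIF2B1, the regulatory alpha subunit, fell by 0.32 ± 0.03 over the lines (adjusted p = 5.8e-08), and here the fall lay in KD1. In A2058 EIF2B1 stood at 13.3, 13.0 and 13.5 FPKM in KD1 and 20.4, 23.6 and 23.5 in KD2, against 22.2, 22.3 and 22 in control. The SKMEL2 values were 15, 15.5 and 16.1 FPKM in KD1 and 22.8, 22.9 and 22.8 in KD2, against 24.1, 23.8 and 24.2 in control. The A375 values were 25.0, 23.6 and 25.9 FPKM in KD1 and 48.2, 56.0 and 47.6 in KD2, against 39.6, 41.0 and 47.6 in control, and the average change there, -0.26 ± 0.10, did not pass (adjusted p = 0.052), though it did on leaving out KD2 replicate 2 (-0.30, adjusted p = 0.045) or KD2 replicate 3 (-0.24, adjusted p = 0.048). In each line KD1 was well below control and KD2 lay nearer to it. EIF2B4 rose in A375 by 0.57 and in A2058 by 0.14, EIF2B2 rose in A2058 by 0.26 and fell in SKMEL2 by 0.16, and EIF2B3 fell in A2058 by 0.16.

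The eIF3 complex is the largest of the initiation factors. Of its 13 subunit genes 6 rose and 4 fell in A2058, where 34.6% and 34.7% of all genes did. In A375 6 rose and 1 fell, beside 26.2% and 21.7%, and in SKMEL2 5 rose and 7 fell, beside 32.9% and 32.4%. EIF3D, the subunit with a cap-binding site of its own, rose everywhere, by 0.48 ± 0.04 in A2058, 0.74 ± 0.13 in A375 and 0.37 ± 0.03 in SKMEL2 (adjusted p = 7.5e-07, 0.0018 and 4.2e-06). In A2058 EIF3D stood at 84.6, 79.5 and 82.0 FPKM in KD1 and 94.1, 94.3 and 98.4 in KD2, against 65.4, 60.8 and 63.5 in control. In A375 it stood at 89.3, 80.3 and 99.6 FPKM in KD1 and 136, 134 and 98.2 in KD2, against 63.5, 55.5 and 68.1 in control. In SKMEL2 it stood at 44.8, 46.8 and 45.2 FPKM in KD1 and 55.4, 57.8 and 56.2 in KD2, against 38.5, 40.4 and 38.4 in control. No knockdown library of EIF3D overlapped the control libraries of its line. Upward separation was seen for 20.3%, 17.1% and 19.1% of all tested genes in A2058, A375 and SKMEL2. EIF3I, a WD-repeat subunit, rose by 0.65 ± 0.03 in A2058, 0.48 ± 0.16 in A375 and 0.28 ± 0.03 in SKMEL2 (adjusted p = 6.6e-08, 0.036 and 2.2e-05). Its A2058 values were 164, 157 and 168 FPKM in KD1 and 265, 262 and 266 in KD2, against 133, 127 and 136 in control. In SKMEL2 EIF3I stood at 270.3, 275 and 261 FPKM in KD1 and 252, 248 and 245 in KD2, against 217, 215 and 209 in control. In A375 EIF3I overlapped its controls, with 356, 330 and 404 FPKM in KD1 and 592, 517 and 363 in KD2, against 296, 266 and 343 in control, and its call there was lost without control replicate 1 or 2, KD1 replicate 1 or 3, or KD2 replicate 1 or 2 (adjusted p from 0.054 to 0.15).

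EIF3G, an RNA-binding subunit, fell most within eIF3, by 0.69 ± 0.05 in A2058 and 0.78 ± 0.03 in SKMEL2 (adjusted p = 9.0e-07 and 9.4e-08), with -0.15 ± 0.16 in A375 (adjusted p = 0.48). In A2058 EIF3G stood at 16.8, 17.3 and 18.8 FPKM in KD1 and 8.99, 8.26 and 8.44 in KD2, against 20.3, 19 and 21.4 in control. The SKMEL2 values were 78.2, 80.8 and 78.3 FPKM in KD1 and 42.1, 43.6 and 40.7 in KD2, against 102, 99.3 and 97.3 in control. The A375 values were 99.9, 86.5 and 116 FPKM in KD1 and 68.0, 53.7 and 41.2 in KD2, against 81.9, 71.1 and 90.4 in control. KD2 was below KD1 and below control in every line, and KD1 was below control in A2058 and SKMEL2 but overlapped it in A375. EIF3L differed most between lines. In A375 it stood at 134, 129 and 134 FPKM in KD1 and 198, 202 and 159 in KD2, against 82.6, 81.4 and 90.3 in control, a rise of 0.89 ± 0.10 (adjusted p = 0.00018). In SKMEL2 EIF3L fell by 0.31 ± 0.05 (adjusted p = 0.00033), with 23.2, 20.6 and 20.9 FPKM in KD1 and 34.4, 33.8 and 31.1 in KD2, against 34.6, 32.9 and 32.1 in control. In A2058 it stood at 34.8, 32.8 and 37.5 FPKM in KD1 and 47.5, 48.2 and 48.1 in KD2, against 44, 42.2 and 44.1 in control, a change of -0.08 ± 0.04 (adjusted p = 0.11) that was -0.11 without KD1 replicate 3 (adjusted p = 0.027). Its effect differed between lines (F-test adjusted p = 2.5e-09). In GENCODE release 44, 41.1% of EIF3L exon bases are shared on the same strand with a gene that has no symbol, ENSG00000279738. EIF3J, the loosely bound subunit, rose by 0.55 ± 0.05 in A2058 and 0.24 ± 0.04 in SKMEL2 and fell by 0.69 ± 0.19 in A375 (adjusted p = 5.9e-06, 0.00093 and 0.014), a difference between lines that passed (F-test adjusted p = 1.9e-05). EIF3A, the scaffold of the complex, rose by 0.49 in A2058 and 0.20 in SKMEL2, with -0.64 in A375, which did not pass (adjusted p = 0.087) and was -0.85 and passed without KD2 replicate 3. EIF3M fell by 0.39 in A2058 and 0.16 in SKMEL2, where KD1 had -0.36 (adjusted p = 0.00018) and KD2 0.04 (adjusted p = 0.54). In A375 EIF3M had -0.31 (adjusted p = 0.068), and -0.34 without KD2 replicate 3 (adjusted p = 0.030). EIF3K fell by 0.29 in SKMEL2 and rose by 0.43 in A375 (adjusted p = 0.049). EIF3C was at 1.13 ± 0.269 FPKM in knockdown and 1.47 ± 0.113 in control libraries of A2058, and its level is uncertain because a near-identical gene copy, EIF3CL, can take its reads.

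Among the elongation genes EEF2K (ENSG00000103319, chromosome 16, 22206278 to 22288738, plus strand), the kinase that inactivates eEF2, fell by 1.05 ± 0.07 in A2058, 0.51 ± 0.10 in A375 and 0.76 ± 0.05 in SKMEL2 (adjusted p = 2.7e-07, 0.0022 and 7.7e-07). In A2058 EEF2K stood at 3.15, 3.27 and 3.76 FPKM in KD1 and 2.45, 2.62 and 2.24 in KD2, against 6.19, 6.82 and 6.50 in control. The A375 values were 6.92, 6.48 and 6.80 FPKM in KD1 and 4.96, 5.05 and 4.43 in KD2, against 8.77, 7.55 and 8.65 in control. In SKMEL2 it stood at 4.71, 4.68 and 4.92 FPKM in KD1 and 4.35, 4.26 and 4.11 in KD2, against 7.43, 8.05 and 8.45 in control. Every knockdown library was below every control library of its line, KD2 was below KD1 in each line, and of the 6 arms that of KD1 in A375 did not pass by itself (-0.28, adjusted p = 0.058). The substrate of the kinase, EEF2, differed between the lines (F-test adjusted p = 1.1e-05). In A375 EEF2 stood at 1729, 1482 and 1909 FPKM in KD1 and 1872, 1732 and 1201 in KD2, against 1072, 945 and 1159 in control. The SKMEL2 values were 923, 1000.0 and 894 FPKM in KD1 and 938, 1018 and 904 in KD2, against 1272, 1216 and 1194 in control. In A2058 EEF2 had 356 ± 38.1 FPKM in knockdown and 422 ± 21.6 in control libraries. It thus fell in SKMEL2 and A2058 (-0.38 ± 0.05 and -0.25 ± 0.05, adjusted p = 0.00013 and 0.00055) and rose in A375 (0.63 ± 0.17, adjusted p = 0.012), where without control replicate 2 the value was 0.55 (adjusted p = 0.068) and under quantile normalization it turned to -0.16 (adjusted p = 0.0070). EEF1E1, which encodes a scaffold protein of the aminoacyl-tRNA synthetase complex, had an average change of 0.13 in A2058 (adjusted p = 0.047). There the arms went opposite ways, with 0.61 in KD1 and -0.35 in KD2 (adjusted p = 7.0e-06 and 0.00047). The EEF1E1 changes of -0.51 and -0.12 in A375 and SKMEL2 did not pass.

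EEF2 and EEF1A1 belong to the TOP mRNAs, of which 9 were listed among the factors and 8 measured: EEF1A1, EEF1B2, EEF1D, EEF2, EIF3E, EIF3F, EIF3H and EIF4B. Transcription starts are shown because the element lies at the first bases of the mRNA, for 4 listed genes whose start holds a pyrimidine run, for the listed EEF1B2, whose annotated start does not, and for EIF3D, which is not on the list but holds such a run. RefSeq starts on GRCh38 were matched for 41 of the 49 factors, and the windows below run from 10 bases before the start to the 20th base of the transcript, with the longest pyrimidine run that begins with a C within 5 bases of the start in capitals, where it has at least 5 bases.
EEF1A1 (chr6:73521013-73521042, minus strand): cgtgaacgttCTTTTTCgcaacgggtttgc
EEF2 (chr19:3985444-3985473, minus strand): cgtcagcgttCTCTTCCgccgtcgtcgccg
EIF4B (chr12:53006446-53006475, plus strand): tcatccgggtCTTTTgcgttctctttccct
EIF3F (chr11:7987327-7987356, plus strand): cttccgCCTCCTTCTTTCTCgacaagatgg
EEF1B2 (chr2:206159599-206159628, plus strand): aagtggccccagcctcgaggccgggcgtct
EIF3D (chr22:36529147-36529176, minus strand): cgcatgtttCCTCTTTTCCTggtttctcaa
A run of at least 5 pyrimidines that begins with C at the annotated start was found in 4 of the 5 TOP-listed genes with a start, all but EEF1B2, in 6 of the other 36 factors, EIF2A, EIF2S3, EIF3D, EIF3K, EIF3M and EIF4A2, and in 4.07% of all 35116 promoters. The match is to letters only.

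In A375 7 of the 8 listed genes rose and none fell, where 26.2% of all tested genes rose and 21.7% fell, and their median change was 0.59 where the median of all genes was 0.02. EEF1A1, which encodes the factor that delivers aminoacyl-tRNA, stood there at 1442, 1348 and 1436 FPKM in KD1 and 1639, 1977 and 1504 in KD2, against 902, 851 and 974 in control, a rise of 0.77 ± 0.13 (adjusted p = 0.0011). EEF1B2, a subunit of its exchange factor, stood at 276, 256 and 291 FPKM in KD1 and 318, 374.98 and 288 in KD2, against 200.2, 190.0 and 225 in control (0.54 ± 0.12, adjusted p = 0.0042). EEF1D, a second exchange subunit, stood at 18, 16.2 and 21.0 FPKM in KD1 and 30.2, 26.4 and 19.3 in KD2, against 12.4, 10.9 and 13.8 in control (0.77 ± 0.15, adjusted p = 0.0028). For each of these genes all 6 knockdown libraries of A375 were above all 3 control libraries, as for 17.1% of all tested genes there. EIF3F rose in A375 by 0.64 ± 0.14, EIF4B, a helper of eIF4A, by 0.55 ± 0.11 and EIF3H by 0.40 ± 0.09 (adjusted p = 0.0041, 0.0034 and 0.0046). EIF3E had -0.27, which did not pass, and -0.42 without KD2 replicate 3, which did (adjusted p = 0.036). Of the 10 factors with a pyrimidine run at the RefSeq start, 6 rose and 1 fell in A375, beside the same 26.2% and 21.7% of all genes, with a median of 0.49.

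The same genes went otherwise in the other lines. In A2058 2 of the 8 rose and 2 fell, with a median of -0.02, where 34.6% of all tested genes rose and 34.7% fell. The rising count there was 1 without control replicate 2 or 3, KD1 replicate 1 or 3, or KD2 replicate 2, and 0 under quantile normalization. In SKMEL2 1 rose and 4 fell, with a median of -0.14, beside 32.9% and 32.4% of all genes, and quantile normalization gave 2 rising and 5 falling. EEF1A1 in A2058 stood at 428, 405 and 446 FPKM in KD1 and 715, 703 and 695 in KD2, against 558, 546 and 549 in control, so the arms lay on opposite sides of control and averaged a change of -0.01. In SKMEL2 EEF1A1 stood at 1242, 1264 and 1180.1 FPKM in KD1 and 1750, 1722 and 1668 in KD2, against 1580.0, 1517 and 1368 in control, again with KD1 below and KD2 above. EEF1B2 stood at 173, 157 and 176 FPKM in KD1 and 181, 186 and 182 in KD2 of A2058, against 179, 175 and 184 in control, and at 165, 159 and 149 in KD1 and 198, 187 and 181 in KD2 of SKMEL2, against 234, 219 and 196 in control, where it fell by 0.33 ± 0.06 (adjusted p = 0.00074). EEF1D stood at 11.1, 11.1 and 11 FPKM in KD1 and 15.2, 14.7 and 14.6 in KD2 of A2058, against 13.0, 12 and 13.2 in control. In SKMEL2 EEF1D stood at 12.1, 14.6 and 12.4 FPKM in KD1 and 12.8, 13.9 and 13.6 in KD2, against 11.4, 10.7 and 11 in control, and rose by 0.25 ± 0.06 (adjusted p = 0.0037). The F-test of a difference in the knockdown effect between lines passed for 31 of the 48 factors, where 61.1% of all genes passed, and its smallest values after that of EIF3L were those of EEF1A1 (adjusted p = 6.1e-07) and EEF1B2 (adjusted p = 2.4e-06).

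**Figure D3:**
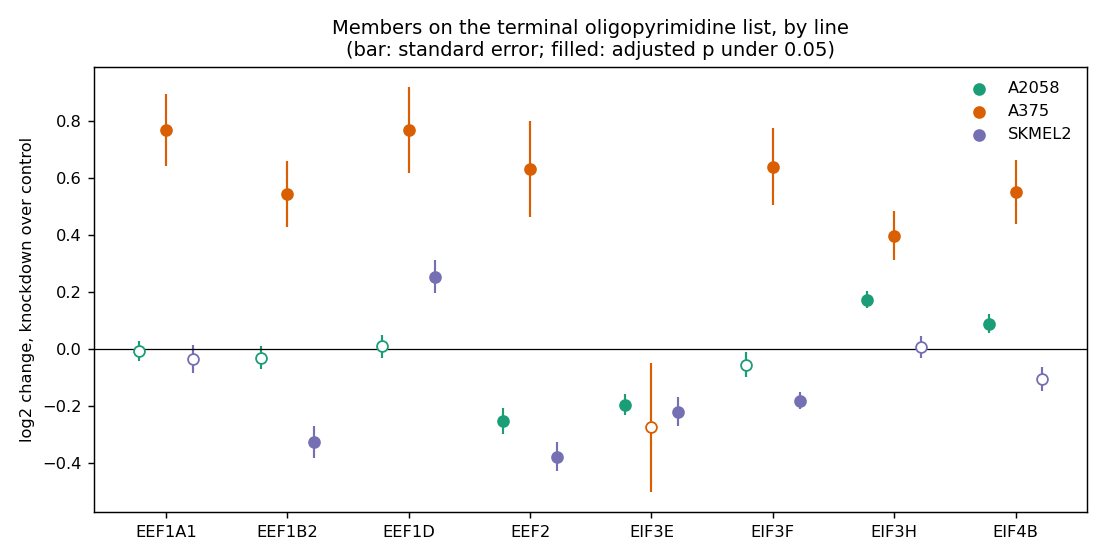
Log2 change of the 8 measured TOP-listed factors, mean of both knockdown arms over control, with standard errors, for A2058, A375 and SKMEL2. In A375 the changes of all but EIF3E lie between 0.40 and 0.77, above those of A2058 and SKMEL2, and under quantile normalization those of EEF1A1 and EEF2 turn to -0.03 and -0.16.

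The A375 rise went with a shift in the make-up of the libraries. The 100 genes of highest FPKM held 41.4 to 48.0% of the summed FPKM in A375 knockdown libraries and 39.2 to 40.2% in its control libraries, while those shares were 45.7 to 48.7% and 45.3 to 47.0% in A2058, and 45.2 to 48.2% and 51.4 to 52.2% in SKMEL2. EEF1A1 and EEF2 are among the most abundant mRNAs, and quantile normalization, which gives every library the same distribution, left 3 of the 8 TOP-listed genes rising and 1 falling in A375. Under it EEF1D and EIF3F kept most of their rise (0.67 and 0.46, adjusted p = 0.00081 and 0.0014), EEF1B2 had 0.22 (adjusted p = 0.017), EEF1A1 -0.03 (adjusted p = 0.75), EIF4B 0.21 (adjusted p = 0.32) and EIF3H 0.13 (adjusted p = 0.39). The part of this shift in the rise was not tested. Without KD2 replicate 3, 7 of the 8 rose and 1 fell in A375, with a median of 0.65.

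The hairpin arms differed in many factors, as they did in many genes of the table. KD2 and KD1 differed, at an adjusted p under 0.05, in 39 of 48 factors in A2058, 13 of 48 in A375 and 36 of 47 in SKMEL2, beside 72.3%, 38.1% and 68.5% of all genes tested. Leaving out KD2 replicate 3 of A375 gave 26 factors there, and leaving out KD1 replicate 2 or KD2 replicate 2 gave 7. In all 3 lines alike, EIF1, EIF2B1, EIF3D and EIF3L were higher in KD2 than in KD1, and EEF2K, EIF2A, EIF3G and EIF4G2 were lower. Such agreement had a background of 9.09% of all genes for higher and 12.7% for lower. EIF3G was lower in KD2 by 1.00 ± 0.06 in A2058, 0.90 ± 0.19 in A375 and 0.90 ± 0.04 in SKMEL2 (adjusted p = 1.3e-07, 0.0040 and 4.3e-08). EIF2B1 was higher in KD2 by 0.74 ± 0.06, 1.01 ± 0.12 and 0.54 ± 0.03 (adjusted p = 7.1e-07, 0.00011 and 5.6e-07) in A2058, A375 and SKMEL2, and EIF1 by 0.85 ± 0.05, 0.65 ± 0.14 and 0.65 ± 0.04 (adjusted p = 6.4e-08, 0.0050 and 3.6e-07). EIF4A2 was higher in KD2 by 0.72 ± 0.05 in SKMEL2 and by 0.64 ± 0.05 in A2058, with 0.67 ± 0.25 in A375 (adjusted p = 0.057). The largest single difference was that of EIF4EBP1 in A2058, -1.21 ± 0.05 (adjusted p = 8.1e-09), and it had the opposite sign in SKMEL2, 0.47 ± 0.05 (adjusted p = 1.5e-05). The arms differ in hairpin sequence as well as in the SIRT5 RNA left, and which of these goes with a gene cannot be told apart.

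**Figure D4:**
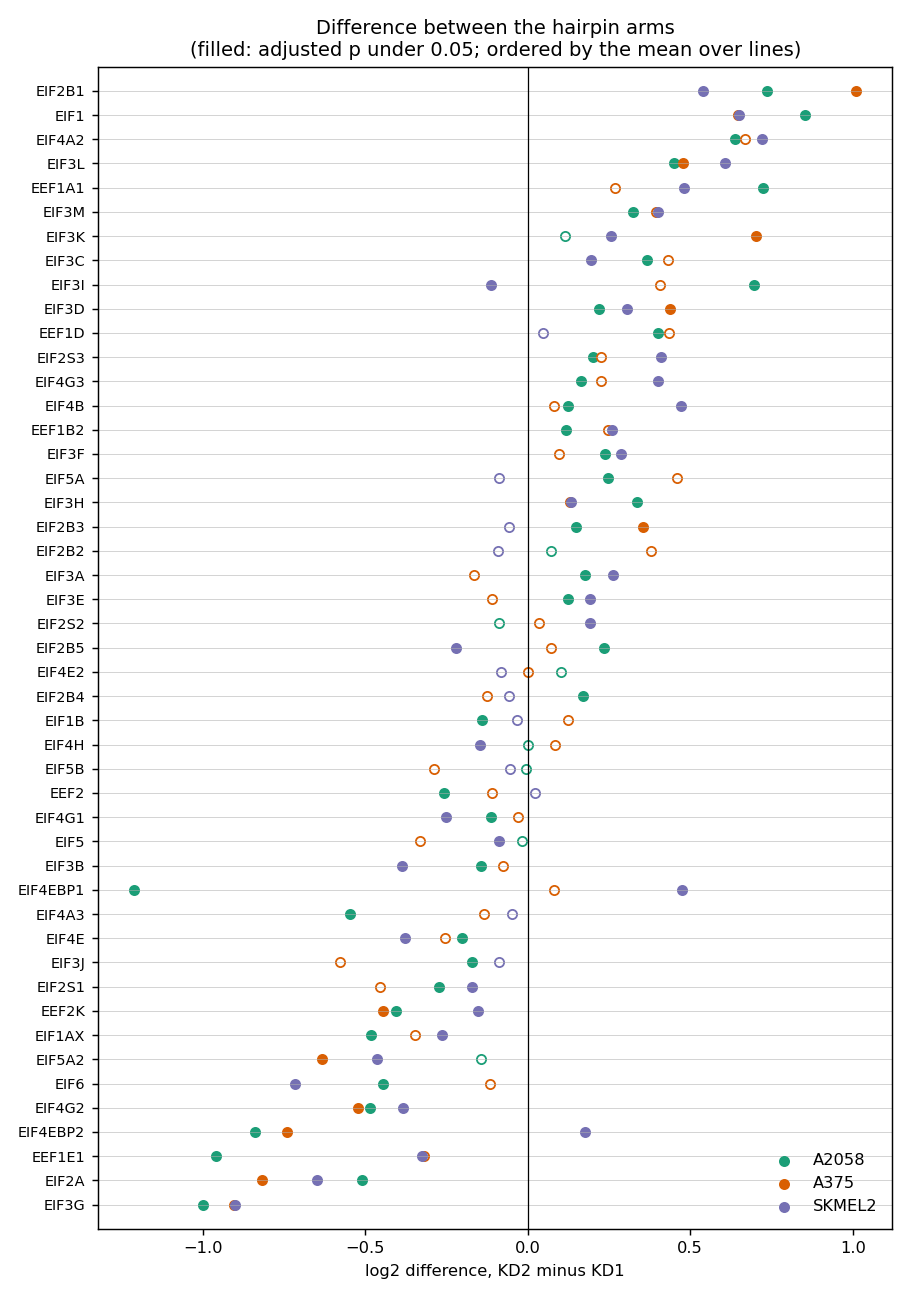
Difference KD2 minus KD1 on the log2 scale for the 47 factors tested in every line, ordered by the mean over lines, with filled points for an adjusted p under 0.05. EIF2B1, EIF1 and EIF3L lie to the right of 0 and EIF3G and EIF2A to the left in all 3 lines, while EIF4E2 lies close to 0 and EIF4EBP1 is split.

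The lines also differed in the level of the factors before any knockdown. EEF1A1 and EEF2 were the highest in each control arm, at 551 ± 6.03 and 422 ± 21.6 FPKM in A2058, 909 ± 61.8 and 1058 ± 108 in A375, and 1488 ± 109 and 1227 ± 40.4 in SKMEL2 (SD, n = 3). Their order was reversed in A375. Between control arms 35 of 48 factors differed in A375 against A2058, 32 in SKMEL2 against A2058 and 33 in SKMEL2 against A375, beside 70.7%, 69.2% and 73.0% of all genes. EIF3G showed the widest range, with 81.2 ± 9.70 FPKM in A375 and 99.7 ± 2.62 in SKMEL2 against 20.2 ± 1.21 in A2058, differences of 1.97 ± 0.12 and 2.28 ± 0.12 (adjusted p = 3.5e-12 and 2.4e-13). EIF6, which keeps the large ribosomal subunit from joining too early, was higher than in A2058 by 1.74 ± 0.13 in A375 and 1.52 ± 0.13 in SKMEL2. EEF1E1 was lower than in A2058 by -1.81 ± 0.18 in A375 and -1.10 ± 0.18 in SKMEL2. EIF5A2, the second gene for the hypusinated factor eIF5A, was lower in A375 than in A2058 by -1.45 ± 0.11 (adjusted p = 7.6e-11), while EIF5A itself was higher there by 0.95 ± 0.11 (adjusted p = 1.2e-07). With knockdown, EIF5A rose in A2058 by 0.31 ± 0.04 and EIF5A2 fell there by 0.53 ± 0.06 (adjusted p = 2.1e-05 and 3.2e-05), and EIF6 fell by 0.32 ± 0.04 in A2058 and 0.26 ± 0.03 in SKMEL2. None of these 3 genes passed in A375.

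**Figure D5:**
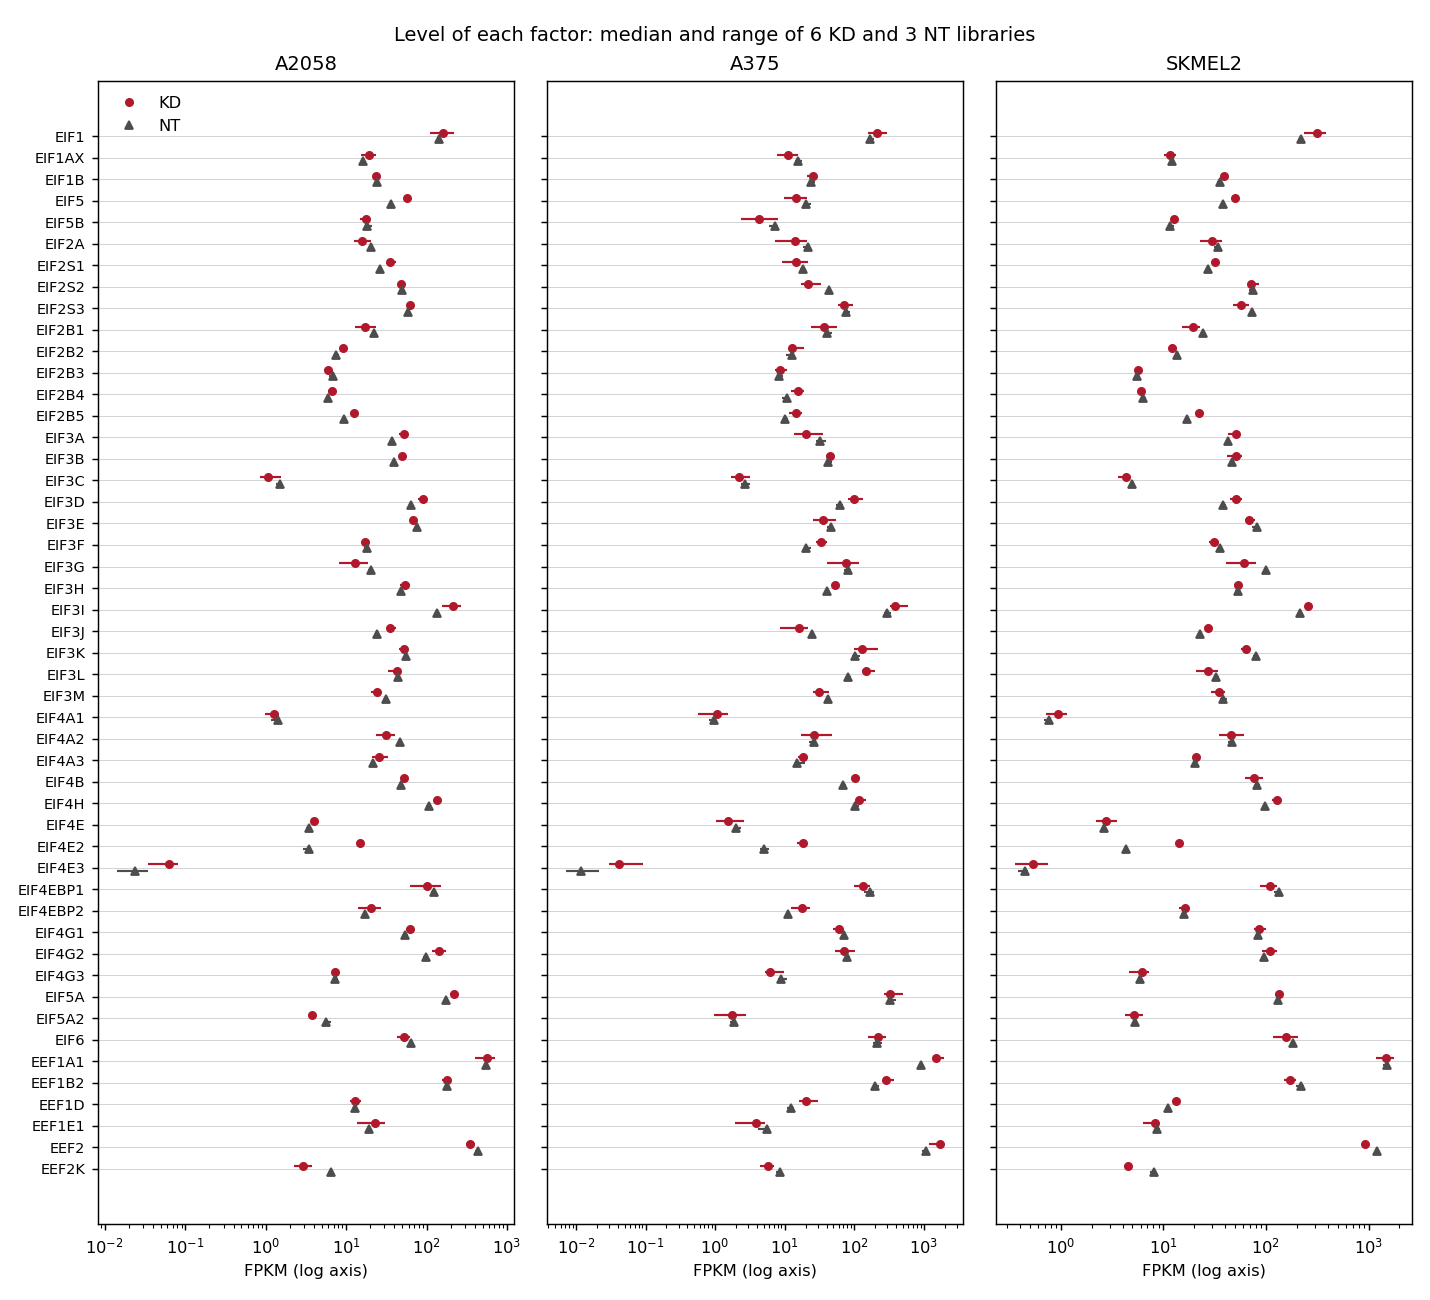
FPKM of the 49 factors on a log axis, as the median and range of the 6 knockdown libraries and the 3 control libraries of each line, in the order of their roles. EEF1A1 and EEF2 lie highest, EIF4E3 lies lowest, and EIF4E2 and EEF2K show ranges of KD and NT that do not meet in any line.

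Among 38 other genes of the translation pathway (kinases and phosphatases of eIF2, mTOR and its targets, poly(A)-binding proteins, release and recycling factors), 18 rose and 10 fell over the lines, with a median of 0.11 and a background of 32% in each direction. The median in A375 was -0.02, where 9 rose and 8 fell, near the shares of 26.2% and 21.7% of all genes. In A2058 20 of 37 rose and 8 fell, with a median of 0.14, beside 34.6% and 34.7% of all genes. In SKMEL2 21 of 38 rose and 6 fell, with a median of 0.17, beside 32.9% and 32.4%. EIF2AK2, the interferon-induced kinase PKR that phosphorylates eIF2 alpha, fell by 1.01 ± 0.09 over the lines (adjusted p = 1.9e-09), and in A375 it stood at 4.84, 4.32 and 3.43 FPKM in KD1 and 2.36, 2.56 and 4.14 in KD2, against 16.5, 15.2 and 11.6 in control. MKNK2, a kinase of eIF4E, rose by 0.68 ± 0.05 (adjusted p = 6.6e-11), with 24.0 to 30.3 FPKM in knockdown and 18.7 to 18.9 in control libraries of SKMEL2. EEF1A2, the tissue-specific second eEF1A gene, rose by 0.63 ± 0.07, PAIP2, an inhibitor of poly(A)-binding protein, by 0.53 ± 0.06, and GIGYF1, a partner of 4EHP, by 0.45 ± 0.04 (adjusted p = 2.7e-08, 1.1e-07 and 6.3e-09). EEF1A2 and GIGYF1 did so unevenly. EEF1A2 had 0.702, 0.859 and 0.684 FPKM in KD1 and 8.90, 8.22 and 10.4 in KD2 of A2058, against 1.95, 1.34 and 1.76 in control. GIGYF1 had 13.4, 15.7 and 14.8 FPKM in KD1 and 5.35, 6.28 and 6.30 in KD2 of A2058, against 8.62, 7.06 and 8.05 in control. Falling genes were GSPT2, a second gene for release factor eRF3 (-0.37 ± 0.05), the poly(A)-binding protein gene PABPC1 (-0.33 ± 0.03) and DENR, a recycling factor (-0.26 ± 0.05).

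In the authors' deposited tables, which rest on DESeq2 and call fewer genes, 12 factors rose and 4 fell in A2058 at an adjusted p under 0.05, 13 and 2 in A375, 8 and 7 in SKMEL2, and 11 and 6 over all lines. The shares of all genes called rising and falling in the authors' deposited tables were 13.0% and 10.1% in A2058, 13.7% and 11% in A375, 13.2% and 11.4% in SKMEL2, and 14.9% and 12.9% over all lines. EIF4E2 had a log2 fold change of 1.90 and EEF2K of -0.85 in the authors' deposited table over all lines. By DESeq2, EIF4E2, EIF3D, EIF2B5 and EEF2K passed in each line. EIF3I did not pass in A375 (adjusted p = 0.0995), nor EIF3G in A2058 (adjusted p = 0.14). EIF2A passed in no single line (adjusted p = 0.24, 0.16 and 0.63 in A2058, A375 and SKMEL2), and narrowly over all lines (adjusted p = 0.04996). EIF2B1 and EIF4EBP1 did not pass over all lines (adjusted p = 0.17 and 0.16).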

How the data were processed

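RNA was measured in 27 libraries by paired-end sequencing of 50-nucleotide reads. Per the submitters' processing notes, the tools named were DESeq2 1.28.1, Subread 2.0.0 with featureCounts, STAR 2.7.3a, Trimmomatic 0.39 and, for quality, MultiQC 1.9 and FastQC 0.11.9, with GRCh38 and GENCODE release 34. Whether counting used strand the sources used here do not say. For 26004 genes the authors deposited FPKM, and they deposited 4 tables of DESeq2 results. Per the file headers, these tables hold a base mean, which is a normalised signal over libraries, a log2 fold change with its error, and raw and adjusted p-values.

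Tests were run on log2(FPKM + 0.5) with limma 3.58.1 (R 4.3.3), moderated along a variance trend and adjusted by Benjamini-Hochberg at 0.05, for genes that reached an FPKM of 1 in 3 or more libraries. This scale understates the change of low genes. Each line was fitted alone, giving the mean of KD1 and KD2 minus NT, and a fit of all 27 libraries gave the mean over lines, the F-test between lines and the control contrasts. Fits held 12797, 12629, 13899 and 16162 genes in A2058, A375, SKMEL2 and all lines, and 48, 48, 47 and 48 of the factors. Whole reads were recovered from FPKM and base means for 100% of values within 0.05 of a whole number. They gave the depth and a limma-voom alternative. The fits were tested on simulated data. Gene positions and 3′ UTRs are from GENCODE release 44 and starts from RefSeq, both on GRCh38.

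Genes given with every library are the 6 rising and 6 falling factors of largest change over the lines, the 2 rising and 2 falling per line called with both hairpins, the 3 with the smallest F-test p and the 2 of largest hairpin difference per line. For the other pathway genes these are the 4 of largest change in each direction. A few other factors were given with libraries to show their group. The factors, lists and rules were chosen with earlier results of these data known. Alternatives changed the pseudocount, filter, scaling, variance model, length trend, libraries in the fit and replicate block.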

Additional observations from a re-analysis of the deposited data

Results flagged for a closer look

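Of the 17 factors chosen for full description, the knockdown effect of 12 differed between the lines in an F-test over the 27 libraries, which 61.1% of all genes passed. EIF3L, EEF1A1 and EEF1B2 were chosen for this p, so theirs are a description. The adjusted p was 2.5e-09 for EIF3L, 6.1e-07 for EEF1A1, 2.4e-06 for EEF1B2, 5.3e-05 for EIF2S2, 0.00014 for EEF2K, 0.00022 for EIF5, 0.00042 for EEF1D, 0.0021 for EIF3G, 0.0097 for EIF4E2, 0.016 for EIF4A2, 0.021 for EIF1 and 0.025 for EIF3D. EIF4E2, EIF3D, EIF1 and EEF2K differed in size with the same sign in each line, whereas EIF3L rose in A375 and fell in SKMEL2. Among 51 groups of 6 knockdown libraries examined for a sample far from the others, 1 stood out: EIF4A2 in A375 KD2 replicate 3, at 48.0 FPKM, whose gap to the next library took 0.664 of the whole range. Chance alone gives about 1 such group in 20 where the 6 libraries are all alike in kind. That rate does not describe these groups, since each pools KD1 and KD2, which differed for many factors.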

How the results depend on the processing

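Under quantile normalization 9 factors rose and 15 fell in A375, and 9 rose over the 3 lines. EEF1A1 in A375 turned to -0.034 (adjusted p = 0.75) and EIF3L over the lines to -0.018 (adjusted p = 0.62). Removing the trend with gene length left 20 factors that differed between hairpins in A375. With all 27 libraries in 1 fit, both hairpins agreed for 12 factors in A2058, 19 in A375 and 6 in SKMEL2, the hairpins differed for 21, 25 and 22, the falling count in A375 was 15, and SKMEL2 had 7 rising and 9 falling. Correlations of deviations between libraries of the same replicate number ran from -0.07 to 0.06 in A2058 and from -0.06 to 0.06 in SKMEL2. In A375 they ran from -0.62 to 0.43, which does not settle whether the numbers pair its samples. With a replicate block 3 factors fell in A375, 7 passed with both hairpins and 8 differed between hairpins. Leaving out single libraries gave 20 to 23 rising and 11 to 14 falling factors in A2058, 11 to 17 and 2 to 15 in A375, 13 to 14 and 14 to 18 in SKMEL2, and 16 to 20 and 10 to 17 over the lines. Counts with both hairpins ran from 18 to 20, 6 to 19 and 15 to 18, and counts that differed between hairpins from 33 to 40, 7 to 26 and 30 to 37, in A2058, A375 and SKMEL2. The F-test count ran from 27 to 37 and the control contrasts from 32 to 38, 26 to 34 and 28 to 39. The causes were not tested. The pseudocount, filter, median centring, variance trend and limma-voom alternatives kept the counts over all the factors within 1.5 times, while without the variance trend 1 of the 8 TOP-listed genes rose in A2058. A375 had the lowest depth, with as few as 7.10 M reads in a library, and the part of depth was not tested.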
